A study of Mus musculus with 12 samples.

Results

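The constitutive proteasome genes described here are 37 of the 22607 genes in the deposited count table. They were taken by symbol: Psma, Psmb, Psmc or Psmd followed by a number, with at least 10 counts summed over the 12 libraries. The pattern matched 44 symbols, from which the 3 immunoproteasome genes Psmb8, Psmb9 and Psmb10 and 4 pseudogene symbols were left out. The 4 pseudogenes held 844 counts in all, against 1638342 for the 37 genes. On the core side stand 16 genes, of which 14 encode core subunits; the other 2, Psma8 and Psmb11, are the testis form of an alpha subunit and the thymus form of a beta subunit. On the cap side stand 21 genes. Of these, 17 encode cap subunits and 3 encode chaperones that help build the base of the cap (Psmd5, Psmd9 and Psmd10). The remaining 1, Psmc3ip, was caught by its symbol only and encodes a meiotic recombination factor. The cap subunits Sem1 and Adrm1 lie outside the symbol rule, are not among the 17 and are given separately below. The tests covered 35 of the 37 genes, among 16007 genes tested. Psma8 had 10 counts, all in 1 ADF GFP library, and Psmb11 had 59 counts, all in 1 fed Crtc2 library, and both were too low to test. A count of 0 in a library allows up to 3 counts.

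The study sequenced RNA of the tibialis anterior, a shin muscle made mostly of fast fibres, from C57BL/6 male mice aged 13 weeks. The muscles had been transduced with an expression vector for Crtc2, which encodes a coactivator that works with Creb1, or with GFP as the empty control. Mice either ate freely or were fasted on alternate days for 3 rounds (ADF). The 4 groups of 3 libraries are called fed GFP and ADF GFP, and fed Crtc2 and ADF Crtc2, so that every muscle carried a vector and the fed GFP group is the control for both factors. The promoter of the vector is not given in the sources used here, nor is whether the 3 libraries of a group are 3 animals or whether GFP and Crtc2 muscles came from the same mice. The tests therefore rest on library-to-library spread, part of which may be technical. The protocols name 2 library kits (NEBNext Ultra II directional and TruSeq Stranded mRNA) without assigning them to libraries. In whole muscle, fewer cells of a type and less RNA per cell cannot be told apart.

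The proteasome is the barrel-shaped protease that degrades proteins tagged with ubiquitin. Its core particle is built of outer alpha rings, which gate the channel, and inner beta rings, which carry the catalytic sites in Psmb5, Psmb6 and Psmb7. The regulatory cap has a base, with a ring of ATPases (Psmc genes) that unfold the substrate and large scaffold proteins that hold ubiquitin receptors, and a lid, in which Psmd14 removes the ubiquitin chain. In skeletal muscle the ubiquitin-proteasome pathway is known for its part in the loss of protein during fasting and disuse, when the muscle ligases Fbxo32 (atrogin-1) and Trim63 (MuRF1) rise.

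Total counts per library ranged from 24232450 to 34610417. Levels are given as CPM, a library's reads brought to a common total, scaled by the trimmed mean of M values (TMM), and differences are log2 fold changes ± SE with adjusted p-values from edgeR's quasi-likelihood test over all 16007 genes, at a threshold of 0.05. Crtc2 itself checked the vector labels: it stood at 29.2, 17.3 and 24 CPM in fed GFP, 64.9, 58.2 and 77.9 in fed Crtc2, 19.8, 16.1 and 23.6 in ADF GFP and 42.8, 40.6 and 31.4 in ADF Crtc2 libraries, so that every Crtc2 library lay above every GFP library. Its difference averaged over both diets was 1.23 ± 0.20 (adjusted p = 0.00578, n = 6 against 6). Within a diet it was 1.51 in fed muscle and 0.947 under ADF, and neither passed the threshold. The 8 fast fibre markers summed to between 111000 and 215000 CPM. The 4 slow fibre markers summed to 132 to 313 CPM in fed GFP and 89.7 to 123 in ADF GFP. In fed Crtc2 they summed to 70.6 to 109 and in ADF Crtc2 to 29.9 to 49.5, so the diets were apart with each vector. Of these 4 markers, 2 were called lower under ADF over both vectors, and 2 lower with Crtc2 over both diets. Markers of other cells were present in every group, and some moved with the groups. The 5 macrophage markers summed to 109 to 153 CPM in ADF GFP and 24.3 to 44.2 in ADF Crtc2, against 71.1 to 79 and 44.6 to 55.3 in the matching fed groups. The 4 fibroblast markers summed to 1190 to 2490 CPM in ADF GFP, 576 to 895 in ADF Crtc2, 555 to 1460 in fed GFP and 441 to 1120 in fed Crtc2. No marker of the 11 lists was at 0 in all libraries of a group, apart from Ms4a1 in both Crtc2 groups and Cd79a in ADF Crtc2, both B cell markers. Their part in the results was not tested.

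Alternate day fasting went with higher levels of cap genes, while core genes fell or did not pass the test apart from Psmb7. In GFP muscle 4 of the 35 genes tested rose, all of them cap subunits (Psmd1, Psmd2, Psmd3 and Psmd11), and 1 core subunit fell (Psma4). Of all genes tested, 4.06% rose and 3.06% fell in the same comparison. In Crtc2 muscle 7 rose, 6 cap subunits (Psmc1, Psmd1, Psmd2, Psmd3, Psmd7 and Psmd11) and the core subunit Psmb7, and none fell, where 6.3% of all genes rose and 4.68% fell. DESeq2 called 1 lower there, and 16 of the 35 had an unadjusted p under 0.05 in either direction. Averaged over both vectors, 7 of the 17 cap subunits rose and none fell, and 3 of the 14 core subunits fell and none rose, where 9.38% of all genes rose and 8.64% fell. Both calls of 0 held with DESeq2. By edgeR's unadjusted p under 0.05, 11 cap and 6 core subunits differed in that comparison. The counts within a vector moved with single libraries. In GFP muscle 2 members rose without ADF GFP replicate 1 or without fed GFP replicate 3. In Crtc2 muscle 1 rose without ADF Crtc2 replicate 1, 2 without fed Crtc2 replicate 1, and 4 without ADF Crtc2 replicate 2 or fed Crtc2 replicate 2. Over both vectors 7 to 9 rose and 2 to 3 fell when any 1 library was left out.

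The median log2 fold change of the 17 cap subunits was 0.30 with GFP and 0.50 with Crtc2, while that of the 14 core subunits was -0.18 and -0.0425. Over all genes tested the medians were -0.00845 and -0.131, and over the 7820 genes averaging 10 CPM or more they were 0.06 and 0.07, so that the core median in Crtc2 muscle lay above the first of these backgrounds and below the second. Of the 17 cap subunits, 14 lay above 0 in GFP muscle and 16 in Crtc2 muscle, against 4 and 7 of the 14 core subunits. Scaling by library totals instead of TMM shifted the median of all genes by -0.0989 in GFP and -0.294 in Crtc2 muscle and by -0.192 over both vectors. With that scaling 4 members rose and 3 fell in GFP muscle, 1 rose and 3 fell in Crtc2 muscle, and 7 rose and 5 fell over both vectors. The median of the cap subunits stayed above 0 under each scaling. That of the core subunits stayed below 0 except in Crtc2 muscle after removal of a trend with exon length, where it was 0.0759.

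The ratio of core to cap inside a library does not depend on scaling, while the sums do. Summed over the core side, levels were 1893 ± 125 CPM (SD, n = 3) in fed GFP, 1891 ± 84.5 in fed Crtc2, 1641 ± 89.0 in ADF GFP and 1873 ± 110.0 in ADF Crtc2. The cap side summed to 2629 ± 139, 2608 ± 259, 3319 ± 293 and 3585 ± 384 CPM in the same order. The log2 ratio of core to cap lay between -0.565 and -0.375 in the 6 fed libraries and between -1.07 and -0.825 in the 6 ADF libraries. The diets did not overlap in this ratio, with either vector. ADF minus fed, it changed by -0.54 in GFP and by -0.472 in Crtc2 muscle. Which side moved depended on the scaling: in Crtc2 muscle the core sum overlapped between the diets with TMM, whereas with total-count scaling its log2 difference was -0.3 and that of the cap sum 0.173. Together the 37 genes held 0.426 to 0.488% of the TMM-scaled library in the fed groups and 0.461 to 0.598% under ADF.

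**Figure D1:**
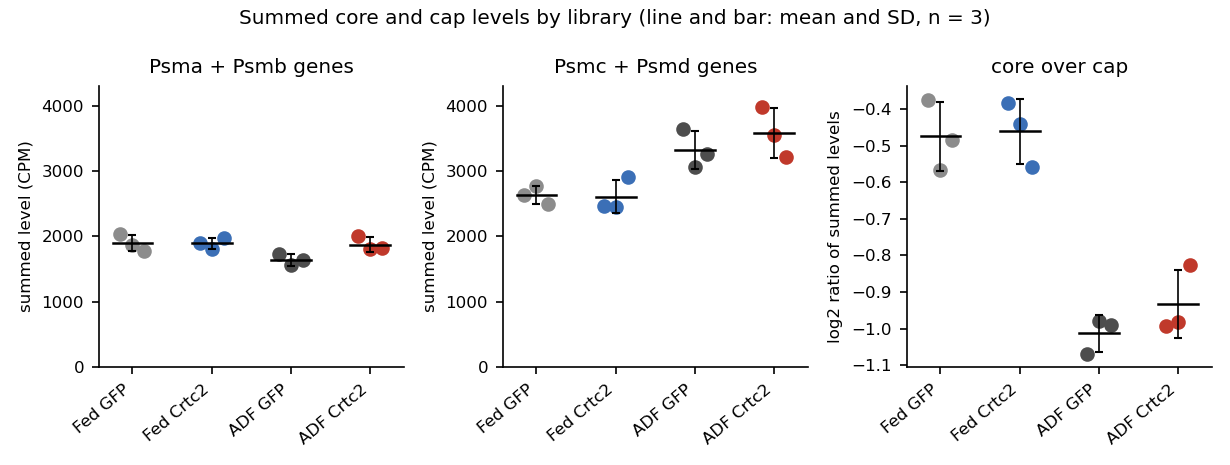
Summed CPM of the 16 core-side genes (left) and the 21 cap-side genes (middle), and the log2 ratio of the sums (right), in each of the 12 libraries; points are libraries, lines and bars the mean and SD of 3. The ratio lies at or above -0.565 in every fed library and at or below -0.825 in every ADF library.

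**Figure D2:**
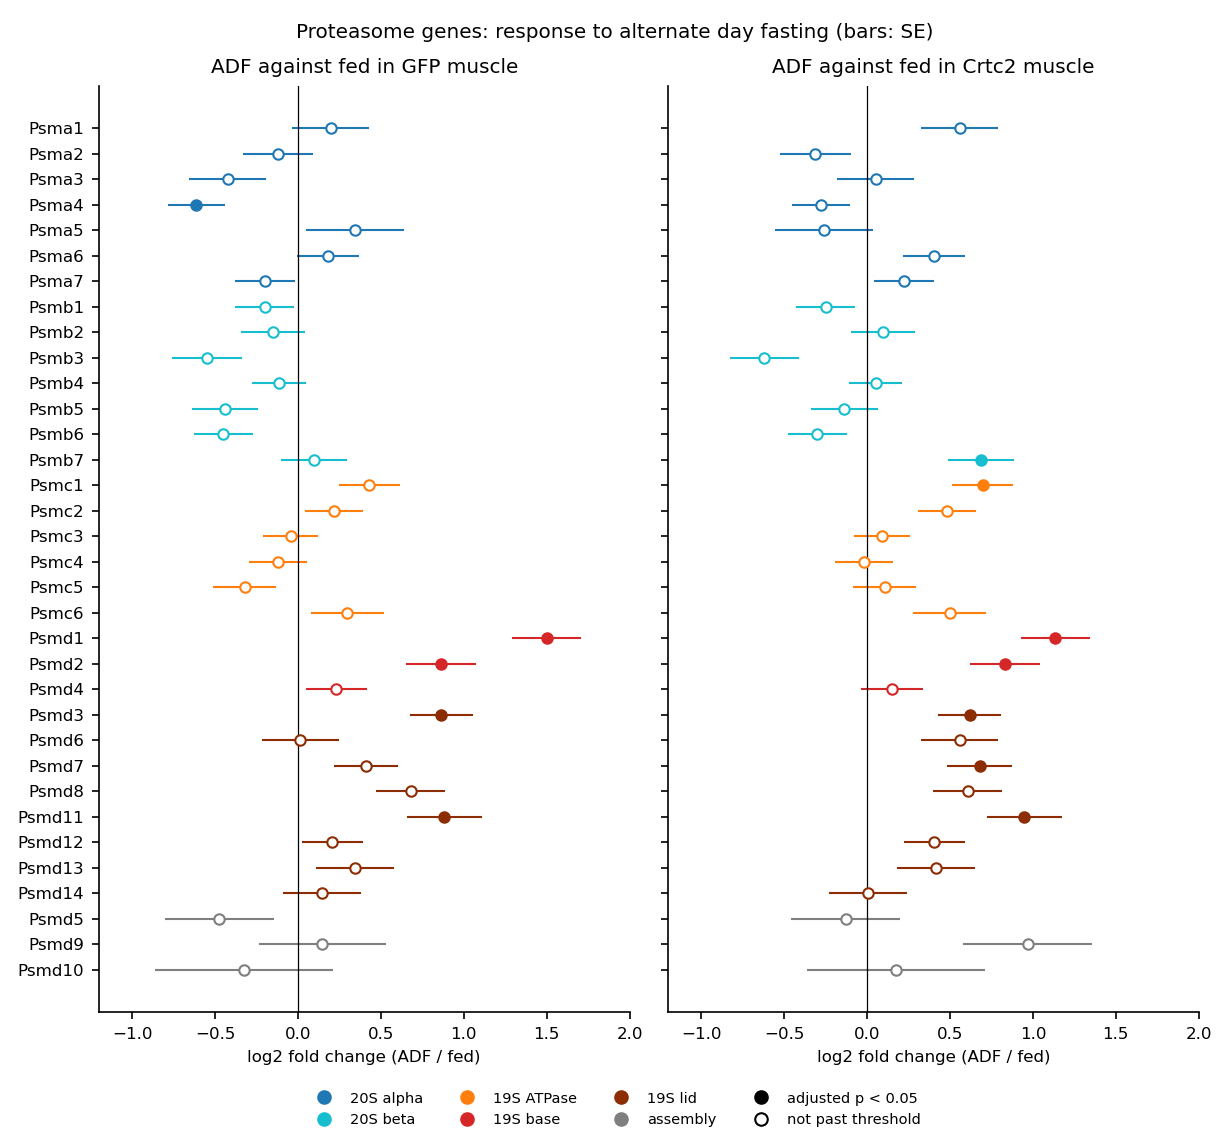
Log2 fold change, ADF over fed, of the 34 tested proteasome genes other than Psmc3ip, in GFP muscle (left) and Crtc2 muscle (right), with SE bars; filled points passed the threshold. Psmd1 and Psmd2 of the base and Psmd3 and Psmd11 of the lid are filled in both panels and lie to the right of 0.

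Promoters of genes from both sides are shown because the sides moved apart. They are from RefSeq on GRCm38.p6, all on the plus strand, and only bases before the start and outside GENCODE exons are printed; 30 of the 37 genes had an entry. Psmd2 (chr16:20651402-20651651) and Psmd11 (chr11:80428365-80428614) were called in all 3 diet comparisons, like Psmd1 and Psmd3. The promoters of Psmb3 (chr11:97703184-97703398) and Psmb6 (chr11:70525107-70525356), which fell, were added after their values were seen. Psmd3 had no entry. Psmd1 and Psma4 are not printed, because 232 and 250 of their 250 upstream bases lie in GENCODE exons. Capitals mark the motifs searched, on both strands: TGACNNNGC (the antioxidant response element core read by Nfe2l1 and Nfe2l2), TGACGTCA (the full cAMP response element of Creb1), TGACG (its short form, which TGACGTCA contains and TGACNNNGC can overlap), GTAAACA (a FoxO site) and CCAAT (the NF-Y box).
Psmd2 promoter: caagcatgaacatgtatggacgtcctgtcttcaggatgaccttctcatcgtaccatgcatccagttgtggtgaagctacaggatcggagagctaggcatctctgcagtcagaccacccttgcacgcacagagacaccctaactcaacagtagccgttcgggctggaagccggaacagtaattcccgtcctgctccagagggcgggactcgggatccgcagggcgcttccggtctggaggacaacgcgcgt
Psmd11 promoter: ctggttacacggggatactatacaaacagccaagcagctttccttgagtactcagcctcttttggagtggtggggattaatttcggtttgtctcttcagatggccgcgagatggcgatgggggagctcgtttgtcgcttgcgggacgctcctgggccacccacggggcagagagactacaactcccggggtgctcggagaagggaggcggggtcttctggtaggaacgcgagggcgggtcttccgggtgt
Psmb3 promoter: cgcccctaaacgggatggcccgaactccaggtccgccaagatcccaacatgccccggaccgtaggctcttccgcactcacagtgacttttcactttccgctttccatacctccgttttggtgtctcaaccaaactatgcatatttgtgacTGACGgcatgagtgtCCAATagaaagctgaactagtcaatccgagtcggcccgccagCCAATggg
Psmb6 promoter: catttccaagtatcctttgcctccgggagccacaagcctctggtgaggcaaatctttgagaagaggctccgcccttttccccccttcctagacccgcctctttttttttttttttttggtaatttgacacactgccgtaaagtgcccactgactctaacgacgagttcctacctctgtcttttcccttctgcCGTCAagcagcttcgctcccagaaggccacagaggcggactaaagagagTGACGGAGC
The printed stretches of Psmd2 and Psmd11 hold none of the 5 motifs, nor do the 300-base windows of Psmd1 and Psma4. Psmb3 holds TGACG with its first base 100 bases before the start and CCAAT at 85 and 43 bases before it. Psmb6 holds TGACG at 58 and at 9 bases before the start, the latter within a TGACNNNGC match. Over the 300-base windows, TGACG occurred in 14 of the 30 members with an entry (46.7%), against 23.0% of the 27025 genes in the table. That background was neither limited to genes expressed in muscle nor matched for base composition, so the excess cannot be assigned to the motif. It was in 7 of 11 core subunits and 6 of 14 cap subunits. TGACNNNGC occurred in 5 members (16.7%, against 14.0% of all genes) and CCAAT in 13 (43.3%, against 41.1%). TGACGTCA and GTAAACA occurred in 0 of the 30, against 2.03% and 4.05% of all genes. These are matches of letters in a window, not binding sites.

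Levels of different genes were compared per kilobase of exon (CPM per kb, mean of 12 libraries). Among the 31 subunits they ran from 14.9 for the scaffold Psmd1 and 18.9 for the lid subunit Psmd11 to 164 for the ATPase Psmc5. Next to Psmc5 stood the catalytic subunits Psmb6 at 137 ± 24.4 (SD, n = 12) and Psmb5 at 134 ± 23.1, which differed by less than their spread. The third catalytic subunit, Psmb7, stood at 42 ± 9.56. The length used is the union of all annotated exons, which can differ from that of the transcript expressed. It was 3.42 kb for Psmb7 and 0.899 kb for Psmb5, whose fed GFP means before division were 132.9 and 131.6 CPM. The order of genes here therefore depends on this divisor. By class, the median was 43.4 for the 7 alpha subunits, 94.2 for the 7 beta subunits, 86.4 for the 6 ATPases, 68.5 for the 3 other base subunits and 39.5 for the 8 lid subunits. The highest of these means was 6.63 times the lowest within the core and 11 times the lowest within the cap. The groups differed in this: Psmc5 and Psmd1 stood at 179.7 and 7.59 in fed GFP and at 144 and 21.5 in ADF GFP. The 3 assembly chaperones lay far below, at 2.94 to 6.69. Psmd1 and Psmd11 were the lowest subunits in both fed groups. In ADF GFP Psma3 was the lowest, at 17.2. In ADF Crtc2 Psmd1 was still the lowest, at 21.1, while Psma3 and Psmd14, at 21.5 and 22.7, lay below Psmd11, at 25.5.

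Both base scaffolds rose. Psmd1 (chromosome 1, 86064387 to 86139151, GRCm38) encodes Rpn2, the larger scaffold of the base. It stood at 51.2, 68.9 and 45.4 CPM in fed GFP and 62.2, 70.3 and 76.5 in fed Crtc2 libraries, against 165, 152 and 151 in ADF GFP and 187, 148 and 125 in ADF Crtc2. Every ADF library lay above every fed library with either vector. The log2 fold change was 1.5 ± 0.21 in GFP muscle (adjusted p = 8.56e-05) and 1.14 ± 0.21 in Crtc2 muscle (adjusted p = 0.000795). These calls kept their side of the threshold in all 20 alternative analyses. Of its exon bases, 4.14% overlap Gm21972 on the same strand and 3.47% overlap Htr2b on the other.

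Psmd2 (chromosome 16, 20651652 to 20663414) encodes Rpn1, the scaffold that docks ubiquitin receptors and shuttles. It stood at 182, 237 and 143 CPM in fed GFP and 182, 183 and 259 in fed Crtc2, against 406, 299.8 and 319 in ADF GFP and 445, 346 and 317 in ADF Crtc2. Fed and ADF libraries did not overlap. It rose by 0.86 ± 0.21 in GFP (adjusted p = 0.0133) and 0.83 ± 0.21 in Crtc2 muscle (adjusted p = 0.012). In GFP muscle the call was lost without ADF GFP replicate 1 (adjusted p = 0.0776) or fed GFP replicate 3 (0.0745). In Crtc2 muscle it was lost without ADF Crtc2 replicate 1 (0.0871), fed Crtc2 replicate 1 (0.0644) or fed Crtc2 replicate 2 (0.0554), and with total-count scaling (0.0502). The ubiquitin receptor Psmd4 (Rpn10), the last base subunit found by the symbol rule, differed by 0.23 ± 0.18 and 0.15 ± 0.18, not past the threshold.

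The 8 lid subunits found by the symbol rule all had positive log2 fold changes in both vectors. These ran from 0.0134 to 0.883 in GFP and from 0.00368 to 0.948 in Crtc2 muscle. Sem1, a lid subunit outside the rule, fell, as given below. With total-count scaling 7 of the 8 lay above 0 in each vector, and Psmd14 stood at -0.295 in Crtc2 muscle. Over both vectors 4 passed the test: Psmd3, Psmd7, Psmd8 and Psmd11. Psmd11 (chromosome 11, 80428615 to 80473248), or Rpn6, is the subunit that braces the lid against the core. Its levels were 108, 64.2 and 76.4 CPM in fed GFP, 104, 85.8 and 63.4 in fed Crtc2, 155, 140.2 and 164 in ADF GFP and 197, 151 and 141 in ADF Crtc2. The lowest ADF library lay above the highest fed library. The differences were 0.88 ± 0.23 (adjusted p = 0.0174) and 0.95 ± 0.23 (adjusted p = 0.00758). In GFP muscle the call was lost without ADF GFP replicate 1 or 3 or fed GFP replicate 2 or 3 (adjusted p = 0.0539, 0.0666, 0.0899 and 0.0623), and in Crtc2 muscle without ADF Crtc2 replicate 1 (0.0582) or with total-count scaling (0.0802).

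Psmd3 (chromosome 11, 98682554 to 98695979) encodes Rpn3, another helical lid subunit. It stood at 109.5, 101 and 111 CPM in fed GFP, 115, 98.6 and 155 in fed Crtc2, 223, 178 and 185 in ADF GFP and 213, 179 and 175 in ADF Crtc2, again with no overlap between the diets. It rose by 0.87 ± 0.19 in GFP muscle (adjusted p = 0.00662) and by 0.62 ± 0.19 in Crtc2 muscle (adjusted p = 0.0386). The second call was lost in 11 of 20 alternatives, among them leaving out any 1 of ADF Crtc2 replicates 1, 2 and 3 (adjusted p = 0.18, 0.0754 and 0.0697), fed Crtc2 replicates 1 and 2 (0.127 and 0.171) and ADF GFP replicates 2 and 3 (0.0528 and 0.0522). Psmd7 (chromosome 8, 107580381 to 107588464), or Rpn8, the inactive partner of the deubiquitinase, stood at 158, 157 and 144 CPM in fed GFP, 128, 138 and 211 in fed Crtc2, 224, 189 and 197 in ADF GFP and 278, 274 and 213 in ADF Crtc2. Within each vector the diets did not overlap. It passed the test in Crtc2 muscle, at 0.68 ± 0.20 (adjusted p = 0.0258), and stood at 0.41 ± 0.19 in GFP muscle (adjusted p = 0.245). Without ADF Crtc2 replicate 1 or 2 or fed Crtc2 replicate 1 or 2 that call was lost (0.113, 0.102, 0.138 and 0.107), as it was with total-count scaling (0.148) and with only the 2 groups compared (0.0601).

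Psmd8 (chromosome 7, 29174188 to 29180701), or Rpn12, the last lid subunit to join in assembly, stood at 189, 262 and 176 CPM in fed GFP, 196, 200.5 and 286 in fed Crtc2, 398, 271 and 334 in ADF GFP and 402, 355 and 284 in ADF Crtc2. The diets were apart with GFP and overlapped by 1 library with Crtc2. Neither vector alone passed the threshold (0.68 ± 0.21, adjusted p = 0.0517; 0.61 ± 0.21, adjusted p = 0.0664), but their mean did, at 0.64 ± 0.15 (adjusted p = 0.00333). Psmd14 (chromosome 2, 61711694 to 61800376), or Rpn11, the deubiquitinase, did not pass the test. It stood at 50.9, 66.5 and 67.5 CPM in fed GFP, 72.9, 72.9 and 45.9 in fed Crtc2, 61.9, 67.5 and 74.9 in ADF GFP and 48.6, 73.3 and 70.2 in ADF Crtc2. All 4 groups overlapped. Its differences were 0.14 ± 0.24 and 0.00368 ± 0.24, and a p that misses the threshold does not show that the level stayed the same. The remaining lid subunits, Psmd6, Psmd12 and Psmd13, had log2 fold changes between 0.0134 and 0.558, none past the threshold.

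Of the 6 ATPases, only Psmc1 (chromosome 12, 100110154 to 100123405), or Rpt2, whose tail opens the gate of the core, passed the test. It stood at 149, 178 and 128 CPM in fed GFP, 126, 136 and 154 in fed Crtc2, 221, 203 and 191 in ADF GFP and 254, 241 and 181 in ADF Crtc2. Fed and ADF libraries did not overlap. The difference was 0.70 ± 0.18 in Crtc2 muscle (adjusted p = 0.0159), 0.43 ± 0.18 in GFP muscle (adjusted p = 0.189) and 0.56 ± 0.13 over both (adjusted p = 0.00353). Without ADF Crtc2 replicate 1 or 2 or fed Crtc2 replicate 1 the call in Crtc2 muscle was lost (adjusted p = 0.0955, 0.0721 and 0.0758), as it was with total-count scaling (0.131). The other 5 ATPases ran from -0.32 for Psmc5 to 0.30 for Psmc6 in GFP muscle, and from -0.02 for Psmc4 to 0.50 for Psmc6 in Crtc2 muscle. DESeq2 called 2 ATPases higher over both vectors, where edgeR called 1.

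**Figure D3:**
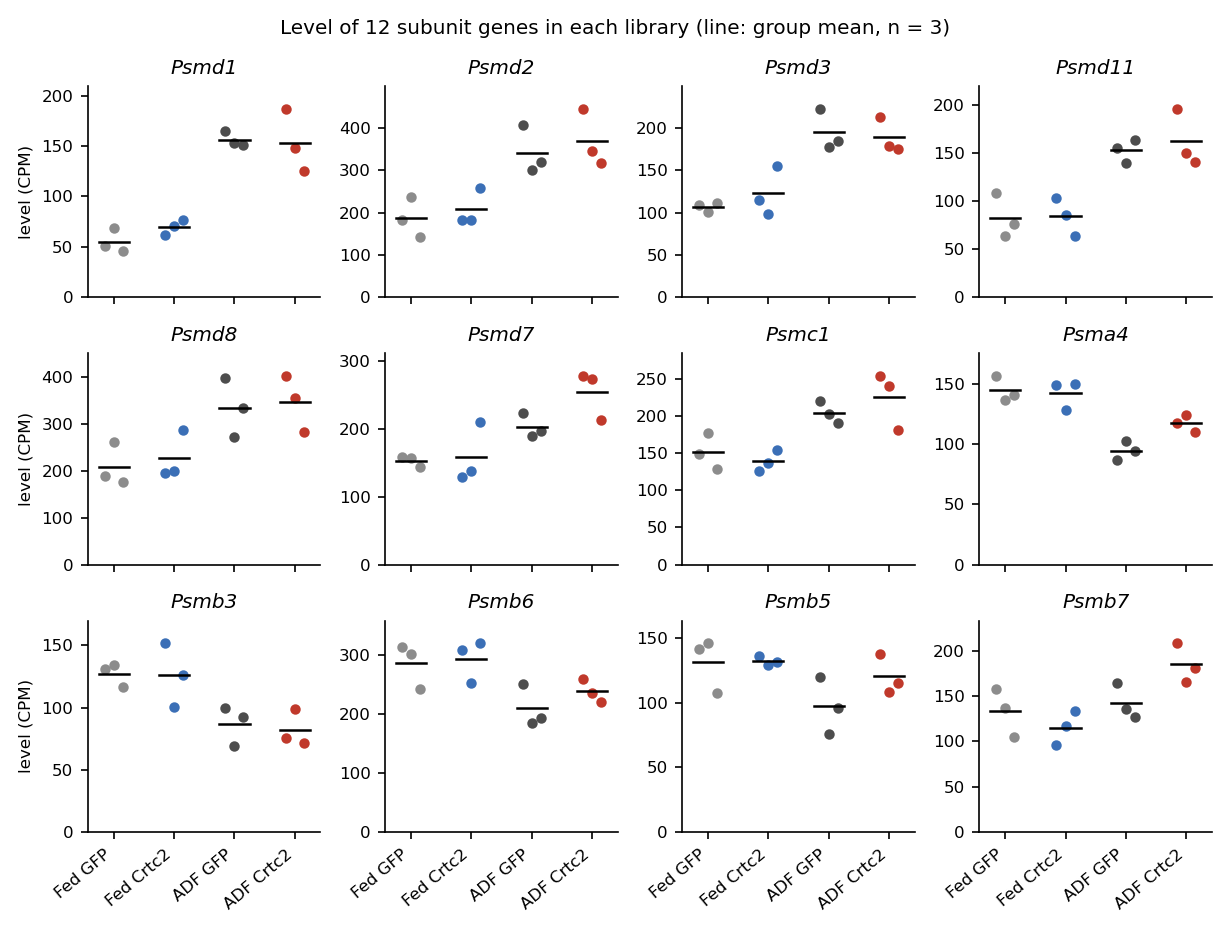
Level in CPM of 12 subunit genes in each library, by group; points are libraries and lines the mean of 3, and each vertical axis starts at 0. The 7 cap genes in the first panels have higher means in the ADF groups, and Psma4, Psmb3 and Psmb6 lower means. Psmb5 and Psmb6 overlap between the diets with each vector, Psmd8 overlaps with Crtc2 and Psmb7 with GFP.

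The beta ring held both directions. Psmb3 (chromosome 11, 97703399 to 97713500), a beta subunit without a catalytic site, stood at 131, 134 and 117 CPM in fed GFP, 152, 101 and 126 in fed Crtc2, 99.9, 68.8 and 92.3 in ADF GFP and 75.8, 98.7 and 71.6 in ADF Crtc2. Every ADF library lay below every fed library. The log2 fold change was -0.55 ± 0.21 (adjusted p = 0.138) and -0.62 ± 0.21 (adjusted p = 0.0632), and over both vectors -0.58 ± 0.15 (adjusted p = 0.00761). That last call held in all 19 alternatives.

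Of the catalytic subunits, Psmb6 (chromosome 11, 70525367 to 70527858), the caspase-like one, stood at 313, 302 and 243 CPM in fed GFP, 307, 252 and 319.6 in fed Crtc2, 250.5, 185 and 193 in ADF GFP and 258, 236 and 220.3 in ADF Crtc2. The diets overlapped with each vector. It fell over both vectors, at -0.37 ± 0.13 (adjusted p = 0.0418), a call lost in 11 of 19 alternatives, including the omission of ADF GFP replicate 2 or 3, any ADF Crtc2 replicate, fed GFP replicate 1 or fed Crtc2 replicate 1 or 3 (adjusted p from 0.0548 to 0.12). Psmb5 (chromosome 14, 54614119 to 54618022), the chymotrypsin-like subunit, stood at 142, 146 and 107 CPM in fed GFP, 136, 129 and 132 in fed Crtc2, 119.5, 76 and 95.7 in ADF GFP and 137, 108 and 115 in ADF Crtc2. It overlapped between the diets with each vector and did not pass the test (-0.44 ± 0.20, adjusted p = 0.227; -0.14 ± 0.20, adjusted p = 0.77).

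Psmb7 (chromosome 2, 38588036 to 38644087), the trypsin-like subunit, went the other way in Crtc2 muscle. It stood at 158, 137 and 104 CPM in fed GFP and 164, 136 and 127 in ADF GFP, which overlapped. In fed Crtc2 it was 95.4, 116 and 133 and in ADF Crtc2 208, 166 and 180.4, which did not. The difference was 0.69 ± 0.20 in Crtc2 muscle (adjusted p = 0.0276) and 0.10 ± 0.20 in GFP muscle (adjusted p = 0.88). The interaction, the response in Crtc2 minus that in GFP muscle, was 0.59 ± 0.28 and did not pass after adjustment (unadjusted p = 0.0481, adjusted p = 0.639). Leaving out ADF Crtc2 replicate 1 or 3 or fed Crtc2 replicate 1 or 2 ended the call in Crtc2 muscle (adjusted p = 0.139, 0.0693, 0.135 and 0.0656). So did total-count scaling, with a log2 fold change of 0.395 (adjusted p = 0.174); 0 beta subunits then rose and 2 fell in Crtc2 muscle. Of its exon bases 11.8% are antisense to Nek6, and the strand setting of the counting is not given in the sources used here. The other 3 beta subunits, Psmb1, Psmb2 and Psmb4, stayed between -0.25 and 0.09 in both vectors, none past the threshold. In TMM-scaled levels Psmb1 was lower in every ADF Crtc2 library (at most 149 CPM) than in every fed Crtc2 library (at least 153.9). How many of all genes lay apart in this way was not counted.

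In the alpha ring Psma4 (chromosome 9, 54950790 to 54958030) fell. It stood at 157, 137 and 141 CPM in fed GFP, 149, 128 and 149.8 in fed Crtc2, 87, 103 and 94.2 in ADF GFP and 118, 125 and 109.9 in ADF Crtc2. All ADF libraries lay below all fed libraries. The difference was -0.61 ± 0.17 in GFP muscle (adjusted p = 0.034), -0.28 ± 0.17 in Crtc2 muscle (adjusted p = 0.349) and -0.45 ± 0.12 over both (adjusted p = 0.0133). In GFP muscle the call was lost in 10 of 20 alternatives, among them the omission of any ADF GFP replicate, fed GFP replicate 1 or 3, or ADF Crtc2 replicate 2 or 3 (adjusted p from 0.0537 to 0.148). Of its exon bases 4.81% are antisense to AY074887. The other 6 alpha subunits had log2 fold changes from -0.42 to 0.35 in GFP and from -0.31 to 0.56 in Crtc2 muscle, none past the threshold. In TMM-scaled levels Psma1 and Psma6 were higher in every ADF Crtc2 than in every fed Crtc2 library. Their differences were 0.56 ± 0.23 (adjusted p = 0.139) and 0.40 ± 0.19 (adjusted p = 0.19). Psma7 went the other way in GFP muscle, lower in every ADF than in every fed library (-0.20 ± 0.18, adjusted p = 0.631). Total-count scaling shifted the median of all genes by -0.294 in Crtc2 muscle, and how many of all genes lay apart was not counted.

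None of the chaperones passed the test. Psmd9, which escorts ATPases during base assembly, was higher in every ADF Crtc2 than in every fed Crtc2 library (0.97 ± 0.39, adjusted p = 0.124), and 25.5% of its exon bases are antisense to Gm26745. Psmd5 and Psmd10 lay between -0.47 and 0.17. Psmc3ip ranged from 0.158 to 9.6 CPM over the 12 libraries, too scattered for its differences to be read.

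The genes that rose had a longer median exon length than those that fell, and length was examined for that reason. Not each gene followed this: Psmc1 and Psmd7, at 1.93 and 2.26 kb, rose and were shorter than Psmb3 and Psma4, at 2.3 and 2.37 kb, which fell. Median exon length was 2.82 kb for cap and 2.33 kb for core subunits, 4.04 kb for the 7 genes that rose over both vectors and 2.3 kb for the 3 that fell, against 3.93 kb over all genes tested. Across the 7820 genes averaging 10 CPM or more, which are not independent replicates, Spearman's rho of log2 fold change with exon length was 0.172 in GFP muscle, 0.0467 in Crtc2 muscle and 0.12 over both. With a length trend removed from each library, the same number of 7 members rose over both vectors and 1 fell (Psmb3), 8 rose and none fell in Crtc2 muscle, and in GFP muscle 1 rose (Psmd1) and none fell. The log2 fold changes whose calls were lost in GFP muscle were 0.72 for Psmd2, 0.72 for Psmd11, 0.68 for Psmd3 and -0.71 for Psma4 after the removal. The part of length in the results was not tested further.

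**Figure D4:**
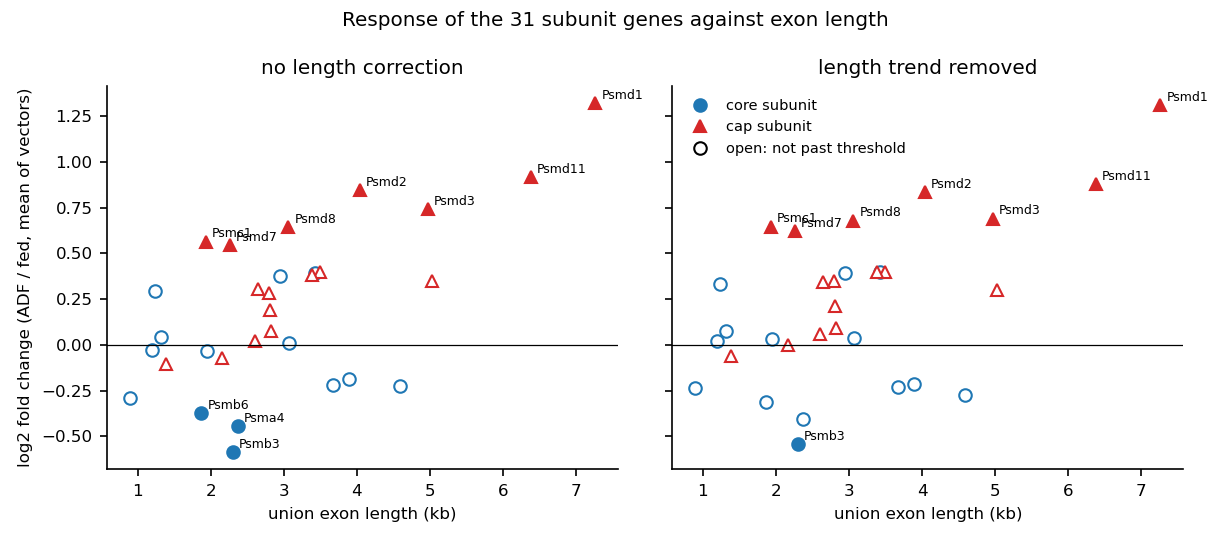
Log2 fold change over both vectors against union exon length in kb for the 31 subunits (circles, core; triangles, cap), without (left) and with (right) removal of the length trend; filled symbols passed the threshold. The 7 filled triangles span 1.93 to 7.26 kb in both panels, and of the 3 filled circles on the left only Psmb3 stays filled on the right.

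No difference between the vectors was detectable among the members with 3 libraries a group. Crtc2 itself passed in neither diet alone, at 1.51 in fed muscle and 0.947 under ADF. A member that missed the threshold within a diet is therefore not shown to be equal between the vectors. With edgeR, 0 of the 35 passed the test for Crtc2 against GFP in fed muscle, where 0% of all genes rose and 0% fell. Under ADF 0 passed, where 0.075% of all genes rose and 0.65% fell. Averaged over both diets 0 passed, where 0.025% rose and 0.469% fell, and in the interaction 0 passed, where 0% of all genes did in either direction. DESeq2 called 0 members in each of these 4 comparisons, and unadjusted p-values under 0.05 numbered 0, 0, 0 and 1, the last being Psmb7. Under ADF the median of the core subunits was 0.268 above GFP and that of the cap subunits 0.0872, against a median of -0.0124 over all genes; with total-count scaling, which shifted all genes by -0.204 there, these became 0.0631 and -0.121. Psma4 was lower in every ADF GFP library than in every ADF Crtc2 library, at 0.31 ± 0.17 (adjusted p = 0.516), as were Psma6, Psmb2, Psmb4 and Psmb7. No such gene lay apart in the opposite direction. Some gaps were narrow: the nearest libraries stood at 164.1 and 165.8 CPM for Psmb7 and at 137.9 and 138.8 for Psma6. These are TMM-scaled levels, and total-count scaling lowers ADF Crtc2 against ADF GFP by the shift above. How many of all genes lay apart in this way was not counted, so no background stands beside these genes. In fed muscle only Psma7 did not overlap between the vectors (-0.22 ± 0.18, adjusted p = 1). The comparisons within a diet share libraries with the diet comparisons above.

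Genes that act with the proteasome were taken from lists of textbook members, which were chosen with earlier results of these data known. Their changes are given over both vectors unless stated, beside the 9.38% and 8.64% of all genes that rose and fell. Of the immunoproteasome and PA28 list, 4 of 5 fell and none rose, with a median of -1.17. Psmb8 and Psmb10, catalytic subunits that interferon induces to replace Psmb5 and Psmb7, fell by 1.23 and 1.17 on the log2 scale (adjusted p = 0.0154 and 0.0176), and Psmb9 was at -0.78 ± 0.42 (adjusted p = 0.225). Psmb8 stood at 63.9, 33.5 and 38.2 CPM in fed GFP, 23.1, 14 and 61 in fed Crtc2, 33.5, 14.5 and 32.1 in ADF GFP and 5.96, 13.7 and 10.7 in ADF Crtc2. The Crtc2 groups were apart and the GFP groups overlapped, each by a narrow margin. The highest ADF and lowest fed libraries stood at 13.67 and 13.97 CPM with Crtc2 and at 33.54 and 33.46 with GFP. Psme1 and Psme2, the PA28 activator, fell by 0.89 and 1.43 (adjusted p = 0.000532 and 8.24e-05). Psme2 has a near-identical copy, Psme2b, and its reads are uncertain. These genes are also expressed by immune and endothelial cells. The macrophage marker sum above was lower in ADF Crtc2 than in fed Crtc2 muscle and higher in ADF GFP than in fed GFP muscle, and none of its 5 genes passed the test for diet. The 4 endothelial markers summed to 189 to 226 CPM in ADF Crtc2 and 282 to 407 in fed Crtc2, and to 237 to 366 in ADF GFP and 217 to 459 in fed GFP; 2 of them fell over both vectors. The 4 T cell markers summed to 0.95 to 3.48 CPM in ADF Crtc2, 0 to 26.4 in fed Crtc2, 11.2 to 30.0 in ADF GFP and 13.5 to 51.3 in fed GFP, with a median log2 fold change of -1.74 over both vectors and none past the threshold. The part of these cells was not tested.

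Of 4 other activators and inhibitors tested, 3 rose and none fell. Psme3 (PA28 gamma), the nuclear activator, rose by 0.94 ± 0.16 (adjusted p = 0.000205), Psme4 (PA200) by 0.69 ± 0.14 (adjusted p = 0.000985) and Psmf1, an inhibitor of the core, by 0.95 ± 0.29 (adjusted p = 0.0237). Of 7 tested cap subunits and partners outside the symbol rule, 4 rose and 1 fell. Adrm1 (Rpn13), a ubiquitin receptor of the base, rose by 1.08 ± 0.22 (adjusted p = 0.00119). Sem1, the smallest lid subunit, went against the rest of the lid: 186, 181 and 159 CPM in fed GFP, 199, 159.8 and 208 in fed Crtc2, 114, 82.8 and 91.5 in ADF GFP and 114, 120.4 and 103 in ADF Crtc2. Its ADF libraries all lay below its fed libraries, at -0.81 ± 0.13 (adjusted p = 0.000119). Of 5 tested assembly factors of the core, 1 fell and none rose: Pomp, which chaperones the maturing core, at -0.47 ± 0.15 (adjusted p = 0.0311).

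Of 12 genes that act in transcription of proteasome genes, 6 rose and none fell. Nfe2l1 encodes the factor known to raise proteasome subunits when the proteasome is impaired. It stood at 523, 532 and 513 CPM in fed GFP, 635, 576 and 508 in fed Crtc2, 1215, 1005 and 898 in ADF GFP and 1511, 1109 and 1208 in ADF Crtc2, with no overlap between the diets. It rose by 0.99 ± 0.17 and 1.16 ± 0.17 (adjusted p = 0.000706 and 9.13e-05). Ngly1, the enzyme that processes Nfe2l1, rose by 1.13 ± 0.21 (adjusted p = 0.000456), and so did Mafk, a small Maf partner of these factors, by 1.47 ± 0.27 (adjusted p = 0.000431). Foxo1, Foxo3 and Foxo4, factors that drive atrophy genes, rose by 0.89, 1.13 and 1.23 (adjusted p = 0.0438, 0.000955 and 1.88e-05).

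Upstream of the proteasome, 6 of 13 muscle ubiquitin ligases rose and none fell. Fbxo32 stood at 81.5, 108 and 128 CPM in fed GFP, 85.1, 170.0 and 105 in fed Crtc2, 819.9, 623 and 777 in ADF GFP and 1295, 795 and 702 in ADF Crtc2, a rise of 2.88 ± 0.19 (adjusted p = 5.87e-09). Trim63 rose by 1.64 ± 0.23 (adjusted p = 0.000168). Over both vectors, both values exceeded that of every proteasome subunit, the largest being 1.32 for Psmd1, but the difference was not tested. For Trim63 the order was not the same in each vector. In GFP muscle its mean went from 176.9 to 482.8 CPM, and that of Psmd1 from 55.16 to 156.1. The ADF Crtc2 libraries of Trim63 stood at 1098, 523 and 327 CPM. Of 9 shuttle and unfoldase genes, 7 rose and none fell, led by Nploc4, a cofactor of the unfoldase Vcp, at 1.71 ± 0.19 (adjusted p = 1.26e-06). Of 11 ubiquitin genes and enzymes at the start of the pathway, 1 rose, the activating enzyme Uba1 (0.47 ± 0.13, adjusted p = 0.012), and 1 fell, Rps27a (-0.72 ± 0.18, adjusted p = 0.00842), a ribosomal fusion gene of ubiquitin. With total-count scaling the direction of each list's median stayed as it was except for the ubiquitin genes, which went from 0.0801 to -0.118. The counts that rose were then 2 of 4 other activators, 2 of 7 cap partners, 5 of 12 in transcription, 5 of 13 ligases, 5 of 9 shuttles and 0 of 11 ubiquitin genes.

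**Figure D5:**
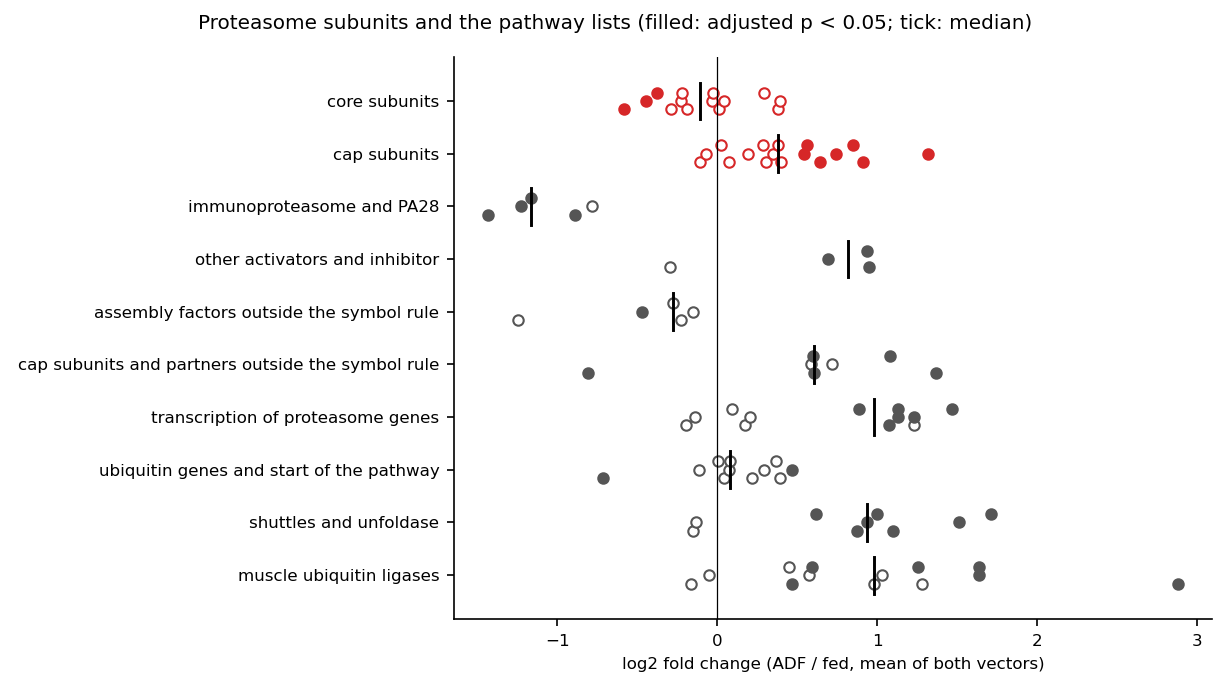
Log2 fold change, ADF over fed as the mean of both vectors, of the core and cap subunits (red) and of the genes in each pathway list (grey); each point is 1 gene, filled where it passed the threshold, and ticks are medians. The cap subunits have a median of 0.379 and the core subunits one of -0.108, and Fbxo32 is the point at 2.88.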

How the data were processed

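RNA-seq of 12 mouse muscle libraries was used as the raw read counts per gene that the authors deposited. Per the submitters' processing notes reads were handled on GRCm38/mm10 with DESeq2 1.18.1, Subread 1.6.1 (featureCounts), HISAT2 2.0.5 and SAMtools 1.7; their settings, strand included, are not given in the sources used here. Genes that filterByExpr kept (16007) were fitted with edgeR 4.0.16 (TMM, robust quasi-likelihood, 4 group means over all 12 libraries) in R 4.3.3 with limma 3.58.1, with Benjamini-Hochberg adjustment over these genes in each of 7 comparisons; fits were tested on simulated data. CPM are TMM-scaled. Exon lengths and overlaps came from GENCODE M21. Values in every library are given for members past the threshold in any comparison and for Psmb5 and Psmd14. Results of single listed pathway genes are given only for some of those past the threshold, and for Psmb9 whatever its result. The members and lists were chosen with earlier results of these data known. Alternatives were scaling by totals, DESeq2 1.42.0, no filter, a mean of at least 10 CPM, non-robust spread, a replicate block, a length offset, only the 2 groups compared, and leaving out each library. No column of the table lacked a sample. An exact test of 3 against 3 libraries cannot go below p = 0.1, so none is given.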

Additional observations from a re-analysis of the deposited data

How the results depend on the processing

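Psmd1 kept its calls in every alternative, and the 7 cap genes and Psmb3 called over both vectors kept theirs; each other diet call of a member ended under at least 1 alternative. Scaling by library totals gave 3 members lower in GFP, 1 higher and 3 lower in Crtc2 muscle, and 5 lower over both vectors. Core medians were then -0.272, -0.342 and -0.302 and cap medians 0.198, 0.194 and 0.181 in these comparisons. For Crtc2 against GFP under ADF, the interaction and the mean of both diets, core medians were 0.0631, 0.0334 and -0.01, and cap medians -0.121, -0.0906 and -0.0543. The log2 difference of the summed core level was then -0.308 (GFP), -0.3 (Crtc2) and -0.00805 (Crtc2 minus GFP under ADF), and of the summed cap level 0.173 (Crtc2 muscle) and -0.0892 (Crtc2 minus GFP under ADF). Psmb7 in GFP muscle became -0.00391, and Psmd14 -0.295 in Crtc2 muscle and -0.123 over both. DESeq2 called 2 lower in GFP and 1 in Crtc2 muscle, with Psmd14 at -0.0328 there. With no filter, and with only the 2 groups compared, 0 were lower in GFP muscle, and Psmd14 in Crtc2 muscle was -0.00842 in the latter fit. With a mean of at least 10 CPM, 3, 1 and 5 were lower in GFP, Crtc2 and both. Core medians were -0.275, -0.158 and -0.217, cap medians 0.192, 0.383 and 0.273, Psmb7 in GFP muscle -0.00499, and Psmd14 -0.109 in Crtc2 muscle and -0.033 over both. With the length offset, 1 was higher and 0 lower in GFP muscle and 1 lower over both. Core medians were -0.291 (GFP), 0.0759 (Crtc2), -0.0952 (vector in fed muscle) and 0.387 (interaction), and cap medians 0.157 (GFP), 0.641 (Crtc2), 0.274 (vector under ADF) and 0.371 (interaction). Psmb7 in GFP muscle was -0.0415. The cap median minus the core median, a measure chosen after seeing the data, was then -0.0664 for the vector under ADF and -0.0152 for the interaction. With the mean of log2 CPM in place of sums, the log2 core-to-cap ratio changed by -0.453 from fed to ADF in GFP muscle. The cause was not tested. Replicate numbers did not pair the libraries: correlations of same-numbered deviations ran from -0.148 to 0.325. With the number as a replicate block, 4 members rose and 1 fell in GFP, 7 and 0 in Crtc2 muscle and 7 and 3 over both, and Psmd14 in Crtc2 muscle was -0.0153. Leaving out 1 library gave 2 to 5 members higher and 0 to 1 lower in GFP and 1 to 8 higher and 0 to 1 lower in Crtc2 muscle. The core median ran from -0.156 to 0.00113 and the cap median from 0.387 to 0.6 in Crtc2 muscle, and the core median from -0.21 to -0.0696 over both, from 0.175 to 0.293 for the vector under ADF and from 0.128 to 0.3 for the interaction. The cap minus core difference ran from 0.428 to 0.644 in Crtc2 muscle and from 0.386 to 0.558 over both. Psmd14 ran from -0.187 to 0.166 in Crtc2 muscle and from -0.0204 to 0.156 over both, and Psmb7 from -0.0479 to 0.242 in GFP muscle. With 3 libraries a group, the SE of a subunit's log2 fold change was mostly near 0.2, which limits the differences that could be detected.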
